A study of Homo sapiens with 16 samples.

Results

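This section describes 8 genes tied to the control of glucose uptake: the alpha-arrestins TXNIP, ARRDC4 and ARRDC3 and the glucose transporters SLC2A1, SLC2A3, SLC2A6, SLC2A8 and SLC2A12. They were taken as a list, chosen with earlier results of these data known. They were found in the array's gene annotation, and all 8 of 8 were measured among 19775 genes. Where a gene had several probe sets, the one brightest on average across the 16 arrays stands for it, and the others served as a check. The cells were MIA PaCa-2, an established human pancreatic cancer line kept in high-glucose medium, so every group is 1 line and 1 genotype. The 4 groups, with 4 arrays each, are PP242 polysomes (polysome RNA after 12 hours in 2.5 µM PP242), vehicle polysomes (polysome RNA after DMSO for the same time), PP242 cytosol (cytosolic RNA after PP242) and vehicle cytosol (cytosolic RNA after DMSO). PP242 is an inhibitor of the kinase mTOR that competes with ATP. Polysome RNA here is mRNA that sedimented with more than 3 ribosomes in a sucrose gradient, and cytosolic RNA is the input to that gradient.

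TXNIP and its relatives are alpha-arrestins, adaptor proteins that link membrane proteins to ubiquitin ligases and to endocytosis. TXNIP binds thioredoxin and lowers glucose uptake by promoting the removal of glucose transporters from the cell surface. Its gene is the best known target of MondoA, encoded by MLXIP, a transcription factor that pairs with MLX and responds to glucose phosphate inside the cell, and mTOR has been described to bind MondoA. The SLC2A genes encode facilitative glucose transporters, of which SLC2A1 (GLUT1) and SLC2A3 (GLUT3) act at the plasma membrane of many tumour cells.

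The promoters of TXNIP and ARRDC4 are shown because both genes are known glucose-responsive targets of MondoA, yet only TXNIP gave a signal well above the low end of the array. Both are RefSeq sequences on build GRCh38.p14, from 250 bases before to 50 bases after the annotated start, written 5′ to 3′ on the gene's own strand. The TXNIP window is chr1:145996530-145996829 on the minus strand, and its last 50 bases are the first of the annotated gene. The ARRDC4 window is chr15:97960453-97960752 on the plus strand. Capitals mark every match to 3 motifs searched on both strands: CACGNGNNNNNCACGNG, the paired E-box-like boxes of a carbohydrate response element, CACGTG, the canonical E-box, and GTAAACA, a forkhead motif.
TXNIP: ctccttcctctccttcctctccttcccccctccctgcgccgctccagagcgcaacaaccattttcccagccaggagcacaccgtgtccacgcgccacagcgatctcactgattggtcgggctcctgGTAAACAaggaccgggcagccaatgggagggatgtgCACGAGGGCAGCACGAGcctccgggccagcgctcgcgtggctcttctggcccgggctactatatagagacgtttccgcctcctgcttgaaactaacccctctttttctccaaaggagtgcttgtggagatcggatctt
ARRDC4: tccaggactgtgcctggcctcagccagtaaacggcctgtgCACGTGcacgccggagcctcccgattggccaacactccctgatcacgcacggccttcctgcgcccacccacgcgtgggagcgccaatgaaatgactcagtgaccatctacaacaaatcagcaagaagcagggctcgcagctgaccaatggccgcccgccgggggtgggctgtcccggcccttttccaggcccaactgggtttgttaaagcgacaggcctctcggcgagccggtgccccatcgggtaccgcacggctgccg

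The tandem motif lies at positions -88 to -72 of TXNIP, counted back from the base before the start, and the forkhead motif lies at -124 to -118. In ARRDC4 the canonical E-box stands at -210 to -205. The tandem was found in 20 of 35116 RefSeq promoter windows of this length (0.057%), the canonical E-box in 7.26% and the forkhead motif in 3.42%. A tandem can contain a canonical E-box, but no match overlapped another in these 2 windows. Of the 8 genes, 7 had a promoter in the table, in 9 windows, and SLC2A3 did not. The only other match was a forkhead motif on the minus strand of ARRDC3, at -29 to -23 of one of its 2 windows. These matches describe letters in a window and were not tested for binding.

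Values are log2 signals summarized with RMA, so a difference of 1 is a doubling of the signal. They rank array signals and do not compare the abundance of different genes. Differences were tested with limma, and a call means a Benjamini-Hochberg adjusted p under 0.05 across the 19775 genes. The array medians over genes run from 5.67 to 5.81 in polysome RNA and from 6.02 to 6.12 in cytosolic RNA, and matching quantiles spread by 0.41 over all 16 arrays but by 0.11 to 0.13 inside a pool, so the pools look normalized apart. A PP242 effect is thus relative to the other mRNAs of the same pool, and a loss from polysomes shared by all mRNAs would not show. The PP242 cytosol arrays are the noisiest, with a median SD per gene of 0.24 against 0.12 to 0.16 in the other groups, and their arrays 2 and 4 carry the lowest weights, 0.36 and 0.25. Of the 5 epithelial markers checked, KRT8, KRT18, KRT19 and KRT7 were above the median gene and EPCAM was low at 2.79. Of the 5 fibroblast markers, COL1A2 (11.54), COL1A1 (6.95) and PDGFRB (6.10) were above the median gene and DCN (5.18) and LUM (3.27) below it, and leukocyte, endothelial and normal pancreas markers had 0 of 2, 0 of 3 and 0 of 4 genes above the median. The 5 epithelial genes averaged 9.73 in PP242 polysomes against 9.34 in vehicle polysomes and 9.20 in PP242 cytosol against 8.56 in vehicle cytosol, and the 5 fibroblast genes averaged 6.5 in PP242 polysomes against 6.72 in vehicle polysomes and 6.52 in PP242 cytosol against 6.68 in vehicle cytosol. Of these lists, 2 epithelial and 1 fibroblast gene were called after PP242 on polysomes, beside 13.4% of all genes. In the cytosol 3 and 1 were called, beside 16.5% of all genes. The part of these shifts in the results was not tested. Nothing in the labels ties the replicates to separate cultures, and the p-values then cover the spread among these samples, which may be technical.

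TXNIP and SLC2A3 rose after PP242 in both RNA pools, and the other 6 genes did not pass the test in either. In polysome RNA 2 of the 8 genes were called higher and 0 lower, where 6.82% of all genes were called higher and 6.55% lower (20.3% in either direction with the replicate block). In cytosolic RNA the count was again 2 higher and 0 lower, where 8.54% of all genes were called higher and 7.91% lower (24.9% in either direction with the replicate block). An unadjusted p under 0.05 was seen for 2 of the 8 genes on polysomes and 4 in the cytosol, beside 24.1% and 30.2% of all genes. The median difference of the 8 genes was 0.19 in polysome RNA and 0.27 in cytosolic RNA, beside -0.01 and 0.04 for all genes. The 4 PP242 arrays lay wholly above the 4 vehicle arrays for TXNIP, ARRDC3 and SLC2A3 in polysome RNA, 3 of 8 where 9.47% of all genes did so. In cytosolic RNA that held for TXNIP, SLC2A1 and SLC2A3, again 3 of 8, where 9.34% of all genes did so. In either direction, the groups were apart for 19.3% of all genes on polysomes and 17.7% in the cytosol. Because the list was chosen with earlier results of these data known, these shares do not test whether the 8 genes stand out.

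**Figure D1:**
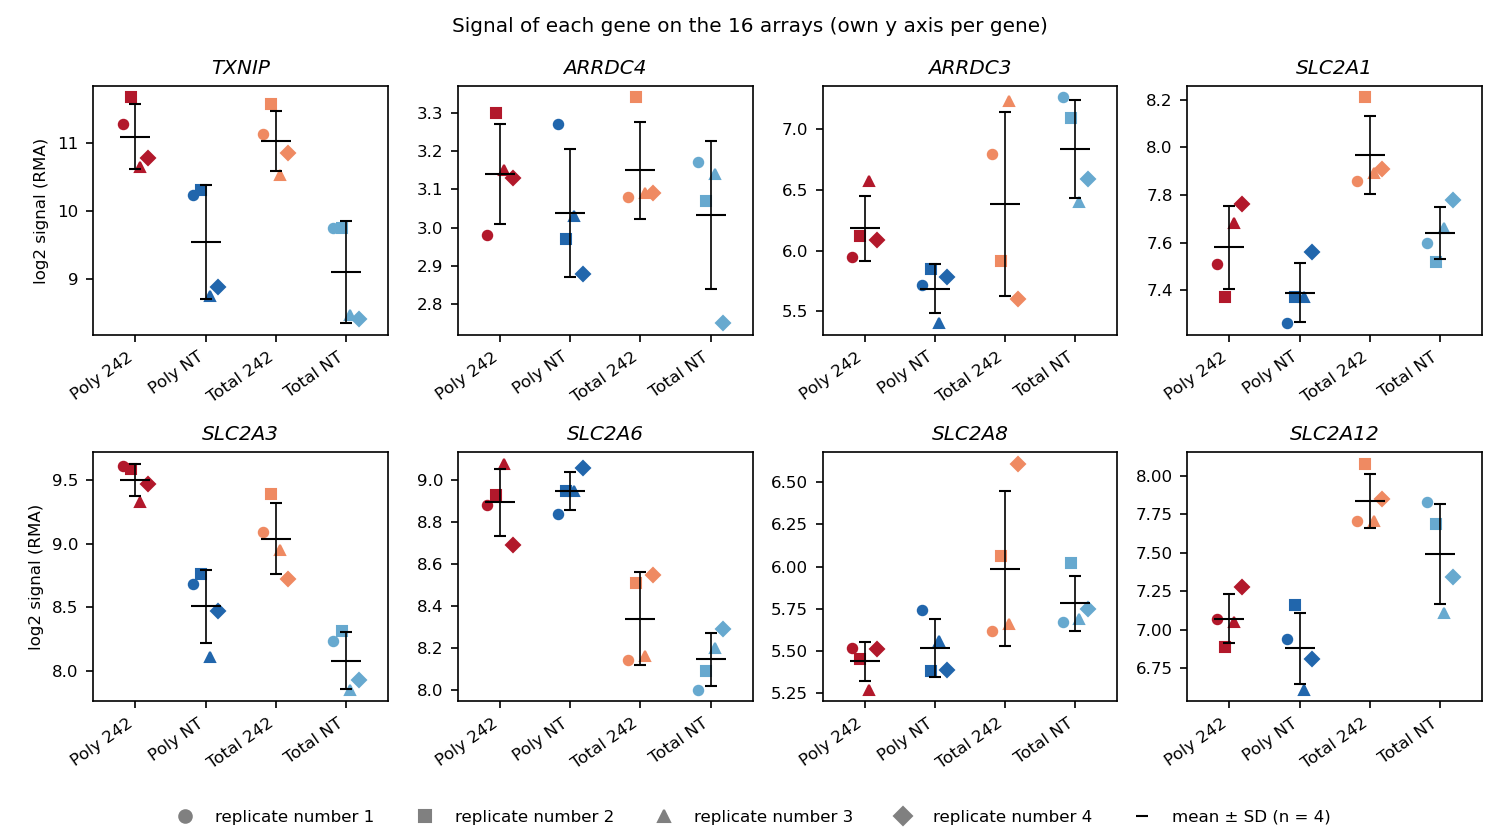
Log2 RMA signal (y axis, separate scale for each gene) of the 8 genes on all 16 arrays, by group on the x axis (Poly for polysome and Total for cytosolic RNA, NT for vehicle); marker shapes give the replicate number, and bars give the mean ± SD of 4 arrays. TXNIP and SLC2A3 are higher in PP242 polysomes than in vehicle polysomes and in PP242 cytosol than in vehicle cytosol without overlap, and ARRDC4 stays between 2.75 and 3.34 throughout.

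TXNIP, the brake on glucose uptake (chr1:145992435-145996579 in GRCh38.p14), showed the largest difference among the 8 genes. Its polysome signal was 11.28, 11.67, 10.65 and 10.77 in PP242 polysome arrays 1 to 4, against 10.23, 10.31, 8.75 and 8.87 in vehicle polysome arrays 1 to 4. All 4 PP242 arrays were above all 4 vehicle arrays, the closest being 10.65 in PP242 polysomes and 10.31 in vehicle polysomes. The mean was 11.09 ± 0.47 in PP242 polysomes and 9.54 ± 0.84 in vehicle polysomes (SD, n = 4 each), a difference of 1.55 ± 0.38 (SE, limma adjusted p = 0.00878), or 2.93-fold. In the cytosol the signal was 11.13, 11.57, 10.53 and 10.85 in PP242 cytosol, against 9.75, 9.75, 8.47 and 8.41 in vehicle cytosol. The groups again did not overlap. The cytosolic means were 11.02 ± 0.44 and 9.10 ± 0.76 (SD, n = 4 each), a difference of 1.93 ± 0.38 (limma adjusted p = 0.0016), or 3.80-fold. TXNIP ranked above 96.8% of genes by signal in PP242 polysomes and above 89.4% in vehicle polysomes.

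The TXNIP signal also differed between replicate numbers. In each of the 4 groups, numbers 1 and 2 read higher than numbers 3 and 4, by 0.77 in PP242 polysomes, 1.46 in vehicle polysomes, 0.66 in PP242 cytosol and 1.31 in vehicle cytosol. Averaged over the groups the gap was 1.05, wider than that of 99.8% of genes. The labels do not say what the numbers stand for. Within numbers 1 and 2 the PP242 difference was 1.21 ± 0.17 in polysome RNA and 1.60 ± 0.17 in cytosolic RNA. Within numbers 3 and 4 it was 1.90 ± 0.17 and 2.25 ± 0.17 (limma adjusted p from 6.74e-05 to 0.000576 in these 4 fits). Such fits have only 2 arrays per group, and limma draws their errors partly from the spread of other genes. TXNIP was therefore higher after PP242 within both pairs of numbers, and whether the size differs between the pairs was not tested. The wide error of the pooled fit includes this gap: with the replicate number as a block the errors were 0.15 and the adjusted p-values 6.27e-07 and 5.23e-08. Without replicate 4 and without a block the polysome call was lost (1.44, adjusted p = 0.0506).

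**Figure D2:**
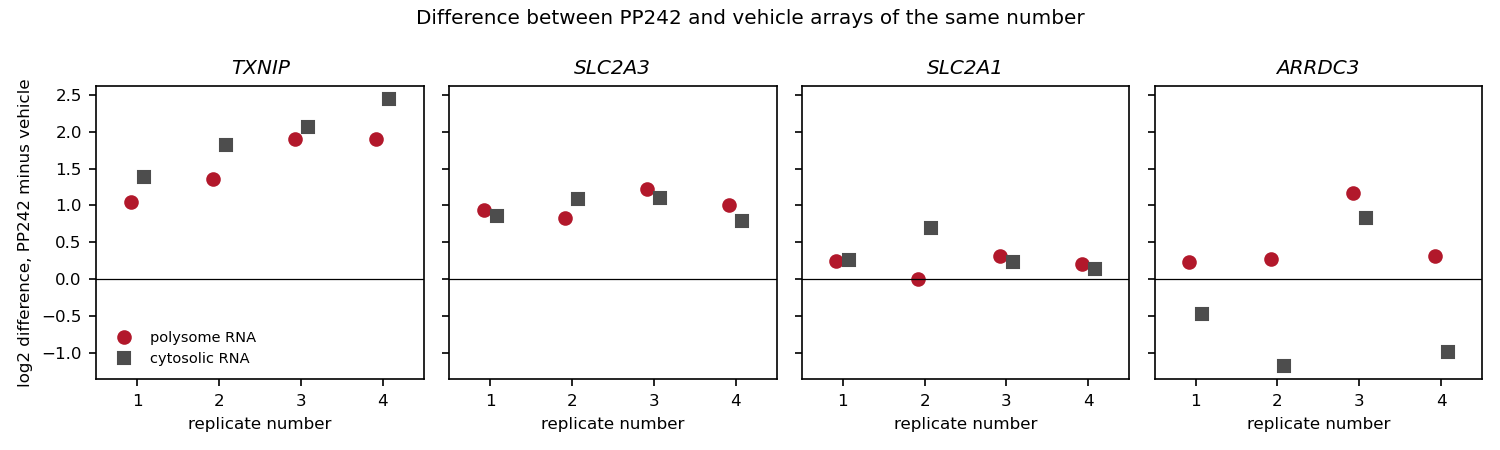
Difference in log2 signal (y axis) between the PP242 and the vehicle array of the same replicate number (x axis), in polysome RNA (circles) and in cytosolic RNA (squares), for 4 of the genes. TXNIP and SLC2A3 are above 0 in all 4 numbers of both pools, and ARRDC3 is above 0 in polysome RNA but below 0 in cytosolic RNA in 3 of 4 numbers.

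All 3 probe sets of TXNIP were called higher after PP242 in both pools. The other 2 differed by 1.53 ± 0.37 and 1.64 ± 0.45 in polysome RNA and by 1.85 ± 0.37 and 1.59 ± 0.45 in cytosolic RNA, with limma adjusted p-values from 0.00238 to 0.0246 over 41093 probe sets. No shift in polysome association was called for TXNIP. Its polysome difference minus its cytosolic difference was -0.37 ± 0.54, with a 95% interval from -1.5 to 0.75. This value was below 0 in all 4 numbers, at -0.33, -0.46, -0.16 and -0.54. With the replicate block it was -0.37 ± 0.21 (limma adjusted p = 0.407). The dimmest TXNIP probe set gave 0.05 ± 0.63 for it without the block. A per-gene regression of polysome on same-numbered cytosolic signals gave a treatment effect of -0.55 ± 0.20, not called (adjusted p = 0.146).

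ARRDC4 (chr15:97960703-97973833), like TXNIP a target of MondoA that restrains glucose uptake, gave a signal at the low end of the array. It read 2.98, 3.30, 3.15 and 3.13 in PP242 polysomes, against 3.27, 2.97, 3.03 and 2.88 in vehicle polysomes. The cytosolic values were 3.08, 3.34, 3.09 and 3.09 in PP242 cytosol, against 3.17, 3.07, 3.14 and 2.75 in vehicle cytosol. The groups overlapped in both pools. Its mean stood at percentile 14.9 of all genes in PP242 polysomes, 13.5 in vehicle polysomes, 10.9 in PP242 cytosol and 10.0 in vehicle cytosol. The PP242 difference was 0.10 ± 0.11 in polysome RNA (95% interval -0.13 to 0.34) and 0.12 ± 0.11 in cytosolic RNA (-0.12 to 0.35), neither called (limma adjusted p = 0.678 and 0.515). ARRDC4 has a single probe set here, and at this signal a change in its mRNA may not be measurable.

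ARRDC3 (chr5:91368631-91383317), an alpha-arrestin known for directing adrenergic receptors and integrin beta 4 to degradation, had differences of opposite sign in the 2 pools, neither of which passed the test over all 16 arrays. On polysomes it read 5.95, 6.12, 6.57 and 6.09 in PP242 polysomes, against 5.72, 5.85, 5.40 and 5.78 in vehicle polysomes. The PP242 arrays were all above the vehicle arrays, with a difference of 0.50 ± 0.28 (limma adjusted p = 0.304). It was called when the 8 polysome arrays were fitted alone (adjusted p = 0.0413), and without replicate 3 it was 0.27 (adjusted p = 0.666). In the cytosol it read 6.79, 5.91, 7.23 and 5.6 in PP242 cytosol, against 7.26, 7.09, 6.4 and 6.59 in vehicle cytosol. Arrays 2 and 4 of PP242 cytosol were the lowest and array 3 was high, so the groups overlapped and the SD was 0.76 in PP242 cytosol and 0.41 in vehicle cytosol. The cytosolic difference was -0.45 ± 0.28 (limma adjusted p = 0.287). It was called within numbers 1 and 2 (-0.83, adjusted p = 0.033) and without replicate 3 (-0.88, adjusted p = 0.0206), whereas it was -0.21 without replicate 2, -0.27 without replicate 4 and -0.08 within numbers 3 and 4.

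The difference between the polysome and the cytosolic effect of ARRDC3 was 0.95 ± 0.39, with a 95% interval from 0.13 to 1.76. It was above 0 in all 4 numbers, at 0.70, 1.45, 0.34 and 1.30. The unadjusted p was 0.0251 and the limma adjusted p was 0.558. In vehicle cells ARRDC3 had one of the lower polysome over cytosolic signals, with vehicle polysomes minus vehicle cytosol of -1.15, at percentile 3.1 of all genes, and PP242 polysomes minus PP242 cytosol was -0.20, at percentile 48.3. These level differences depend on how the pools were scaled and were not tested. Without PP242 cytosol arrays 2 and 4 the shift was 0.32 (limma adjusted p = 0.998) and the cytosolic difference turned to 0.18. That fit kept all arrays of the other groups. Whether noise in the arrays left out made the shift was not tested. Regressing the polysome signal on the cytosolic signal of the same number, with a treatment effect, over 8 pairs of arrays gave 0.60 ± 0.14 (adjusted p = 0.0384). That effect was called, but with a slope of 0.22 it takes only that share of the cytosolic difference off the polysome difference of 0.50. The slope was fitted with PP242 cytosol arrays 2 and 4 included. With the replicate block the shift was not called (limma adjusted p = 0.288).

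**Figure D3:**
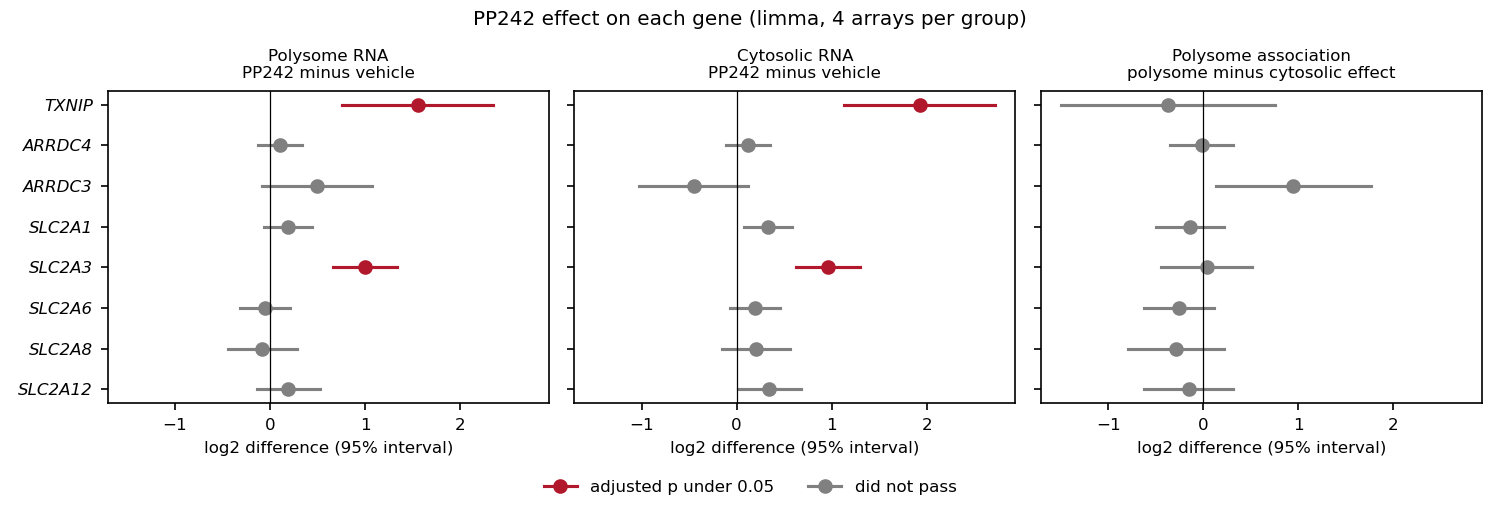
Log2 difference (x axis, point and 95% interval from limma) of the 8 genes (y axis) for PP242 against vehicle in polysome RNA, in cytosolic RNA, and for the difference of these effects; colour marks an adjusted p under 0.05. TXNIP and SLC2A3 pass in both pools and no gene passes for polysome association.

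SLC2A3 (chr12:7919230-7936187) encodes GLUT3, a transporter with a high affinity for glucose, and it rose about as much on polysomes as in the cytosol. It read 9.61, 9.59, 9.33 and 9.47 in PP242 polysomes, against 8.68, 8.76, 8.11 and 8.47 in vehicle polysomes. The lowest PP242 array lay well above the highest vehicle array. The mean was 9.50 ± 0.13 in PP242 polysomes and 8.51 ± 0.29 in vehicle polysomes (SD, n = 4 each), a difference of 1.0 ± 0.16 (limma adjusted p = 0.000271), or 1.99-fold. Cytosolic signals were 9.09, 9.39, 8.95 and 8.72 in PP242 cytosol, against 8.23, 8.31, 7.85 and 7.93 in vehicle cytosol. Again the groups were apart. The cytosolic difference was 0.96 ± 0.16 (limma adjusted p = 0.000378), or 1.94-fold.

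The polysome effect of SLC2A3 minus its cytosolic effect was 0.04 ± 0.23, with a 95% interval from -0.44 to 0.52. SLC2A3 also read higher in numbers 1 and 2 than in 3 and 4, by 0.35 on average, and its PP242 difference was 0.88 and 1.11 in the 2 pairs of numbers in polysome RNA and 0.97 and 0.95 in cytosolic RNA, called in all 4 fits. SLC2A3 is nearly identical to SLC2A14, which has no probe set of its own here, so signal from SLC2A14 cannot be told apart. The 2 probe sets annotated to both genes differed by 0.83 ± 0.16 and 1.16 ± 0.17 in polysome RNA and by 1.06 ± 0.16 and 1.35 ± 0.17 in cytosolic RNA, all called. Of the 2 further probe sets annotated to SLC2A3 alone, 1 was called in both pools (1.26 ± 0.20 and 0.98 ± 0.20). The other was not called in either (0.98 ± 0.32, limma adjusted p = 0.0624, and 0.49 ± 0.32, adjusted p = 0.349).

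**Figure D4:**
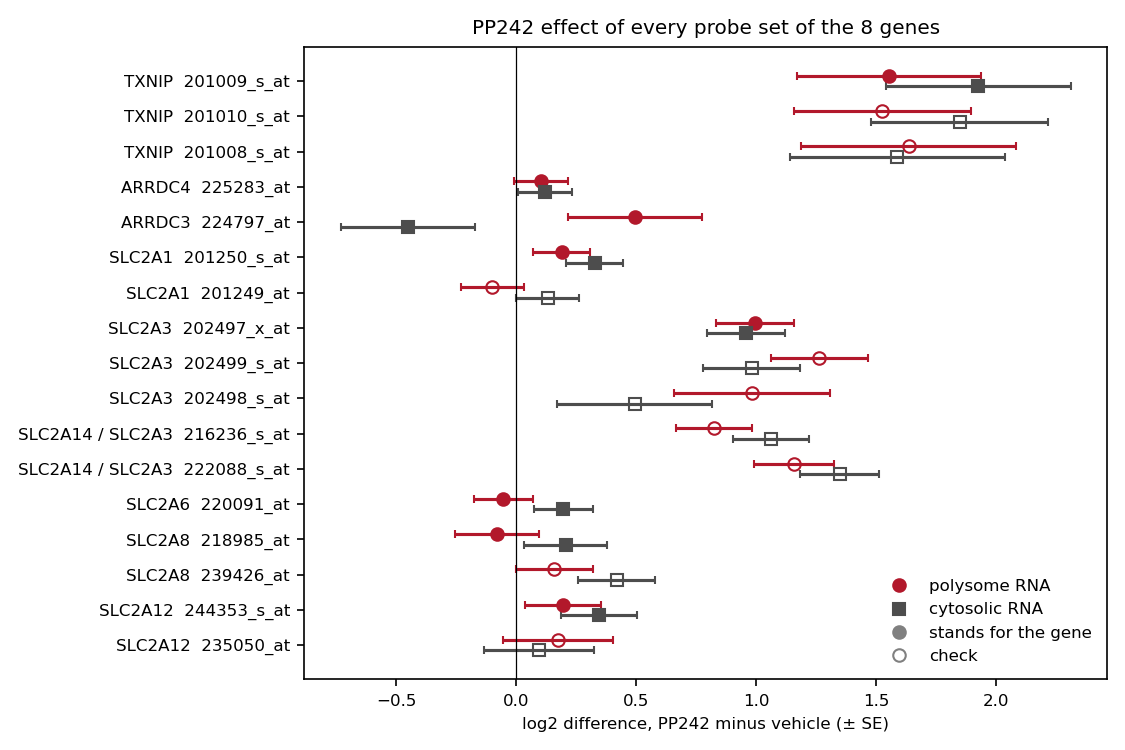
Log2 difference (x axis, ± SE from limma) between PP242 and vehicle for every probe set of the 8 genes and for those shared by SLC2A14 and SLC2A3 (y axis), in polysome RNA (circles) and cytosolic RNA (squares); filled symbols stand for the gene in the text. The 3 TXNIP probe sets lie between 1.53 and 1.93, and the SLC2A3 probe sets between 0.49 and 1.35.

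SLC2A1 (chr1:42925353-42958868) encodes GLUT1, the widespread basal transporter and a known cargo of TXNIP. It read 7.86, 8.21, 7.89 and 7.91 in PP242 cytosol, against 7.60, 7.52, 7.66 and 7.78 in vehicle cytosol. The cytosolic groups did not overlap, with a difference of 0.33 ± 0.12 (95% interval 0.08 to 0.58) that missed the threshold (limma adjusted p = 0.0701). With the replicate block this difference was called (adjusted p = 0.0352), and without PP242 cytosol arrays 2 and 4 it was 0.24 (adjusted p = 0.334). On polysomes SLC2A1 read 7.51, 7.37, 7.68 and 7.76 in PP242 polysomes, against 7.26, 7.37, 7.37 and 7.56 in vehicle polysomes. These groups overlapped, and the difference was 0.19 ± 0.12 (95% interval -0.06 to 0.44, limma adjusted p = 0.386). Its second probe set lay low, between group means of 3.27 and 3.84, and differed by -0.10 ± 0.13 and 0.13 ± 0.13.

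The remaining transporters overlapped between PP242 and vehicle in both pools. SLC2A6 (chr9:133471094-133479099) encodes GLUT6, which resides on lysosomal membranes, and read 8.69 to 9.08 in PP242 polysomes, 8.84 to 9.06 in vehicle polysomes, 8.14 to 8.55 in PP242 cytosol and 8.0 to 8.29 in vehicle cytosol. Its differences were -0.06 ± 0.12 (95% interval -0.32 to 0.21) in polysome RNA and 0.20 ± 0.12 (-0.07 to 0.46) in cytosolic RNA. SLC2A8 (chr9:127397169-127407898) encodes the intracellular GLUT8 and read 5.27 to 5.52 in PP242 polysomes, 5.38 to 5.74 in vehicle polysomes, 5.62 to 6.61 in PP242 cytosol and 5.67 to 6.02 in vehicle cytosol. Its differences were -0.08 ± 0.17 (-0.44 to 0.28) and 0.21 ± 0.17 (-0.15 to 0.56). For these probe sets both genes thus showed intervals that include 0 and leave out a doubling. The second SLC2A8 probe set, with low group means of 3.1725 to 4.025, differed by 0.16 ± 0.16 and 0.42 ± 0.16. Neither was called (limma adjusted p = 0.685 and 0.0972).

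SLC2A12 (chr6:133987581-134052624) encodes GLUT12, a transporter first found in breast cancer cells. It read 7.71, 8.08, 7.71 and 7.85 in PP242 cytosol, against 7.83, 7.69, 7.11 and 7.34 in vehicle cytosol. The vehicle array with number 1 reached into the PP242 range. The cytosolic difference of 0.35 ± 0.16 had an unadjusted p of 0.0421 and did not pass after adjustment (limma adjusted p = 0.149). On polysomes SLC2A12 read 6.89 to 7.28 in PP242 polysomes and 6.61 to 7.16 in vehicle polysomes, a difference of 0.19 ± 0.16 (95% interval -0.14 to 0.52).

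No member was called for polysome association in the fit without a block. Of all 19775 genes limma called 0 (0%) there, with or without the replicate block, although 1750 (8.85%) had an unadjusted p under 0.05, while the per-gene regression called 695. Of the 8 genes, ARRDC3 alone had an unadjusted p under 0.05. The polysome minus cytosolic signal of TXNIP was 0.07 after PP242 and 0.45 in vehicle, that of SLC2A3 was 0.46 and 0.42, and that of SLC2A6 was 0.56 and 0.80, each above the median gene (-0.18 after PP242 and -0.16 in vehicle). For SLC2A12 it was -0.77 after PP242 and -0.61 in vehicle, for SLC2A8 -0.55 and -0.27, and for SLC2A1 -0.39 and -0.25, each below that median. These are descriptions on the deposited scale, and for TXNIP and SLC2A3 the sign depended on the probe set. A second TXNIP probe set read 10.35 in PP242 polysomes against 11.36 in PP242 cytosol, and 8.825 in vehicle polysomes against 9.51 in vehicle cytosol. The dimmest SLC2A3 probe set read 7.755 in PP242 polysomes against 7.95 in PP242 cytosol, and 6.77 in vehicle polysomes against 7.455 in vehicle cytosol.

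The group means of TXNIP ran from PP242 polysomes (11.09) and PP242 cytosol (11.02) to vehicle polysomes (9.54) and vehicle cytosol (9.10), and the values of PP242 polysomes and PP242 cytosol overlapped, as did those of vehicle polysomes and vehicle cytosol. SLC2A3 had the same order, but the values of each group overlapped those of the next, PP242 cytosol and vehicle polysomes included. For SLC2A6 the pool set the order instead, with vehicle polysomes and PP242 polysomes overlapping each other and lying above PP242 cytosol and vehicle cytosol. SLC2A1 and SLC2A12 ran PP242 cytosol, vehicle cytosol, PP242 polysomes, vehicle polysomes, and SLC2A8 ran PP242 cytosol, vehicle cytosol, vehicle polysomes, PP242 polysomes. ARRDC3 ran vehicle cytosol, PP242 cytosol, PP242 polysomes, vehicle polysomes. The 4 group means of ARRDC4 lay between 3.03 and 3.15. These orders hold for the probe set that stands for each gene. A second TXNIP probe set ran PP242 cytosol (11.36), PP242 polysomes (10.35), vehicle cytosol (9.51), vehicle polysomes (8.825).

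The wider pathway was read from 10 lists with 63 genes, of which 56 were measured. These lists too were chosen with earlier results of these data known. In polysome RNA 6 of these 56 rose and 1 fell (12.5% called, beside 13.4% of all genes), with a median of 0.03. In cytosolic RNA 8 rose and 3 fell (19.6%, beside 16.5% of all genes), with a median of 0.12. In this fit ARRDC1, ARRDC2, SLC2A11 and TXNRD1 were called in both pools. With the replicate block 10 rose and 2 fell on polysomes (21.4%, beside 20.3% of all genes), and 18 rose and 6 fell in the cytosol (42.9%, beside 24.9% of all genes). With the block 8 genes were called in both pools, the 4 above and SLC2A13, HK1, NEDD4L and HECW2. None of the 56 was called for polysome association in either fit.

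Both other alpha-arrestins that were measured rose. ARRDC1, known for driving the budding of vesicles at the plasma membrane, read 7.28 to 7.54 in PP242 polysomes against 6.69 to 6.86 in vehicle polysomes, and 6.88 to 7.32 in PP242 cytosol against 6.22 to 6.42 in vehicle cytosol. The differences were 0.70 ± 0.12 on polysomes (limma adjusted p = 0.000317) and 0.76 ± 0.12 in the cytosol (adjusted p = 0.000146), with no overlap in either pool. When the probe sets of ARRDC1 were averaged, these differences were 0.28 and 0.40, both still called (adjusted p = 0.0153 and 0.00112). ARRDC2 read 7.47 to 7.92 in PP242 polysomes against 7.17 to 7.36 in vehicle polysomes, and 7.33 to 7.75 in PP242 cytosol against 6.92 to 7.01 in vehicle cytosol. Its differences were 0.42 ± 0.12 (limma adjusted p = 0.0215) and 0.64 ± 0.12 (adjusted p = 0.000935), and the polysome call was lost without replicate 1 (adjusted p = 0.102), 2 (0.14) or 3 (0.0992). ARRDC5 was not measured.

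Of 9 other genes of the glucose transporter families measured, 1 rose in each pool and 8 did not pass, with medians of 0.03 and 0.13. The riser was SLC2A11, which encodes GLUT11, a fructose and glucose transporter: it read 7.0 to 7.58 in PP242 polysomes against 6.37 to 6.68 in vehicle polysomes, and 7.11 to 7.51 in PP242 cytosol against 6.39 to 6.80 in vehicle cytosol. The differences were 0.69 ± 0.14 (limma adjusted p = 0.00219) and 0.78 ± 0.14 (adjusted p = 0.000746). When its probe sets were averaged, the polysome difference was 0.17 (limma adjusted p = 0.437) and the cytosolic one 0.40 (adjusted p = 0.0232). With the replicate block SLC2A13 was also called in both pools (0.32 and 0.31), at low group means of 3.10 to 4.56. SLC2A10 was called with the block in the cytosol (0.49, limma adjusted p = 0.0152).

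The glucose-sensing factors themselves did not pass. MLXIP, which encodes MondoA, differed by 0.21 ± 0.13 on polysomes and -0.32 ± 0.13 in the cytosol, MLXIPL, which encodes ChREBP, by 0.08 ± 0.16 and 0.47 ± 0.16, and their partner MLX by -0.03 ± 0.12 and 0.20 ± 0.12. With the replicate block the cytosolic differences of MLXIP and MLXIPL, of opposite sign, were called (adjusted p = 0.0243 and 0.0256). Of 8 other genes described as glucose-responsive targets, 0 passed in either pool by limma, with medians of 0.03 and -0.21. With the block 2 of those 8 were called in the cytosol, RGS16 at 0.33 and ACACA at -0.32.

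Of 4 thioredoxin system genes, TXNRD1, the cytosolic thioredoxin reductase, rose in both pools, by 0.78 ± 0.19 (limma adjusted p = 0.00877) and 0.84 ± 0.19 (adjusted p = 0.00476). TXN, the thioredoxin that TXNIP binds, fell by 0.52 ± 0.16 in the cytosol (limma adjusted p = 0.0321) and had -0.15 ± 0.16 on polysomes. With the block TXNRD2 was also called in the cytosol (0.35, adjusted p = 0.0453). The TXN call was lost without replicate 2 or 4 and without PP242 cytosol arrays 2 and 4. The cytosolic TXNRD1 call was also lost without those arrays (adjusted p = 0.051), and its polysome call when probe sets were averaged (adjusted p = 0.154).

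Of 9 NEDD4-family ubiquitin ligases, the partners that alpha-arrestins recruit, 2 rose on polysomes (SMURF1 at 0.38 ± 0.11 and HECW2 at 0.46 ± 0.14) and 1 in the cytosol (NEDD4L at 1.01 ± 0.30, limma adjusted p = 0.0285). With the replicate block 4 were called on polysomes, NEDD4L (0.72, adjusted p = 6.08e-05) and SMURF2 (0.73, adjusted p = 0.00123) being added, and 3 in the cytosol, with HECW2 (0.40) and WWP1 (-0.44) added. The cytosolic adjusted p of NEDD4L with the block was 1.35e-06. Its cytosolic difference was 1.045 within numbers 1 and 2 (limma adjusted p = 0.000371) and 0.97 within numbers 3 and 4 (0.0345). ITCH, the ligase described to degrade TXNIP, had 0.07 ± 0.10 and 0.18 ± 0.10. Of 8 genes of transporter trafficking, the retromer subunit VPS26A fell on polysomes (-0.33 ± 0.11), while in the cytosol VPS35 (0.42 ± 0.11) and TBC1D4 (0.54 ± 0.16) rose and RAB10 (-0.71 ± 0.18) fell. Of 4 hexokinase genes, HK1 rose in the cytosol (0.33 ± 0.11), and of 7 AMPK subunit genes the catalytic PRKAA1 fell there (-0.58 ± 0.16). Neither of the 2 lactate transport genes measured, SLC16A7 and BSG, passed. With the block HK2 (0.50, adjusted p = 0.00686), HKDC1 (0.45, adjusted p = 0.024), PRKAB1 (0.32, adjusted p = 0.0416) and BSG (0.51, adjusted p = 0.0101) were also called in the cytosol, and HK1 (0.28, adjusted p = 0.0469) and the retromer gene VPS29 (-0.33, adjusted p = 0.0137) on polysomes. Without the block, each call of SMURF1, HECW2, NEDD4L, VPS26A, VPS35, TBC1D4, RAB10, HK1 and PRKAA1 was lost on leaving out at least 1 replicate number: for SMURF1 numbers 1, 2 or 3, for HECW2 and TBC1D4 numbers 2, 3 or 4, for NEDD4L, HK1 and PRKAA1 numbers 1, 2 or 4, for VPS35 and RAB10 numbers 2 or 4, and for VPS26A any of the 4. With probe sets averaged, calls were also lost for VPS26A (-0.0137), PRKAA1 (-0.15), HECW2 (0.12), NEDD4L (0.41), VPS35 (0.18) and RAB10 (-0.39), and SMURF1 was 0.25 and still called. Without PP242 cytosol arrays 2 and 4, all 6 cytosolic calls among these were lost, with RAB10 at -0.26, HK1 at 0.17, PRKAA1 at -0.35, VPS35 at 0.24, TBC1D4 at 0.45 and NEDD4L at 0.77.

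**Figure D5:**
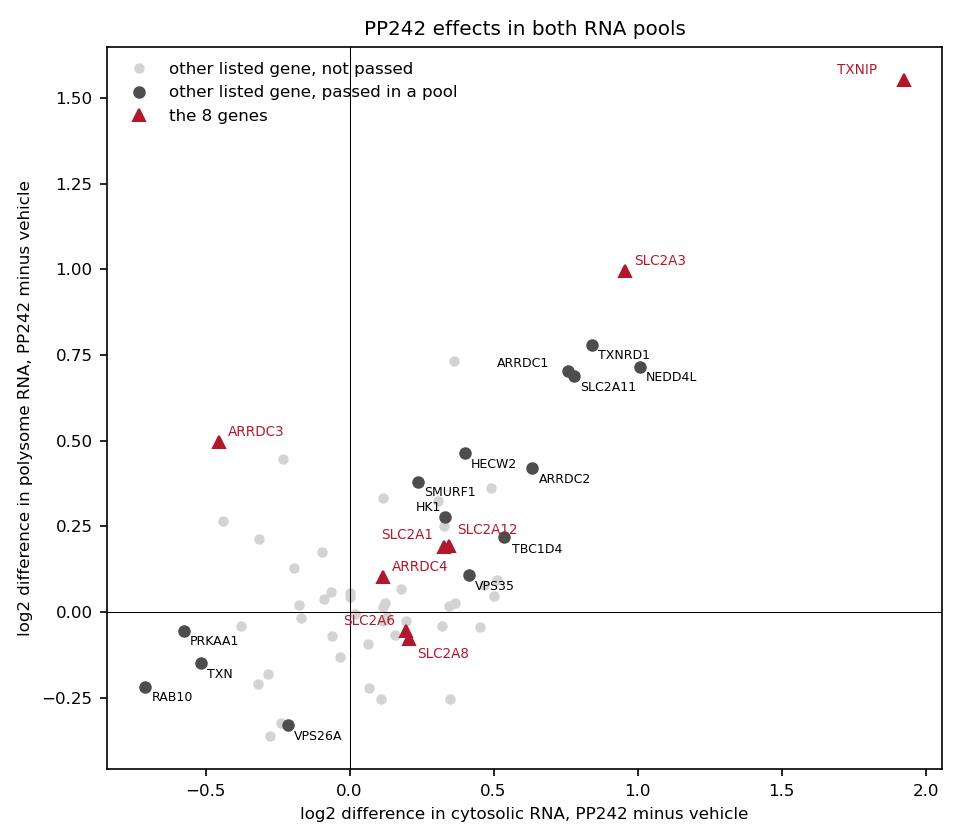
Log2 difference between PP242 and vehicle in cytosolic RNA (x axis) and in polysome RNA (y axis) for the 8 genes (triangles) and the 56 other measured genes of the lists (circles, dark where called in a pool). TXNIP lies farthest out, and SLC2A3, NEDD4L, TXNRD1, SLC2A11 and ARRDC1 lie next on the upper right.

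The genes whose profiles were most like each member were sought among 9878 genes with a mean above the median, by Pearson correlation over 16 arrays after removing the mean of each pool. For TXNIP they were TIMP1 (0.99), MXI1 (0.98) and DALRD3 (0.98), and for SLC2A3 they were TGFB1I1, MGAT4B and P2RX4 (each 0.98). For SLC2A1 they were LRRC8D (0.94), GANAB (0.93) and TPRA1 (0.93), and for ARRDC3 PCNX4 (0.96), LRP11 (0.95) and TM2D1 (0.95). For the other 4 members the best matches reached 0.89 to 0.91 (PLEKHA1 for ARRDC4, UQCRC1 for SLC2A6, EXOC6 for SLC2A12) and 0.88 (SMYD5 for SLC2A8). The arrays behind these values share treatments and replicate numbers, so the correlations describe the profiles and carry no p.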

How the data were processed

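The measurements are microarray signals of 16 Affymetrix 3′ expression arrays, 4 in each of 4 groups. The deposited values are log2 signals per probe set that the authors made with RMA, as the submitters' processing notes name it; the sources used here give neither its version nor whether all arrays were normalized together. Of 54613 probe sets, 41091 list 1 gene, 1801 list several and 11721 none in the array's annotation. The probe set with the highest mean stands for each of 19775 genes. Groups came from the sample titles.

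Testing used limma 3.58.1 in R 4.3.3: 1 mean per group over all 16 arrays, eBayes with an intensity trend, two-sided p-values, Benjamini-Hochberg adjustment over all genes, called under 0.05. Standard errors follow ± unless SD is named. The contrasts were PP242 against vehicle in each RNA pool and the difference of these effects. Deviations from the group mean correlated above 0.1 in 16 of 16 pairs of same-numbered arrays of the same pool or treatment (0.16 to 0.51). With both pool and treatment unlike, that held for 7 of 8 same-numbered pairs (0.0265 to 0.46). Arrays of unlike number were not compared in this way. The main fit leaves the replicate number out, and the replicate block adds it. No 2 arrays of a group shared more than 3.4% of values. On simulated data with 50 genes planted per size among 19775, the polysome fit recovered 38%, 94%, 98% and 100% of changes of 0.5, 1, 1.5 and 2. The cytosolic fit recovered 46%, 88%, 98% and 100%. The simulated noise was independent with 1 spread per gene, without differences between replicate numbers or a noisier group. Fewer genes changed there than were called in the data, so recovery in the data may differ. Alternatives were the replicate block, leaving out each number, fits within pairs of numbers (2 arrays per group), other scalings, filters, probe sets and weights, and a per-gene regression. The members, lists and tests were chosen with earlier results of these data known. All 8 members are named, and other genes only from the 10 lists (up to 4 called genes per list by smallest p, and genes a sentence needs for identity), as cell type markers or as the 3 closest profiles; list genes called only with the replicate block were named after their values were seen. The precision is limited by 4 arrays per group.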

Additional observations from a re-analysis of the deposited data

Results flagged for a closer look

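A value that stood apart from the other 3 arrays of its group was looked for in the 32 groups of 4 values (8 genes in 4 groups), by setting the gap to the nearest array over the group's range against Dixon's 95% critical value, which chance passes in about 1 of 20 groups. It was found for ARRDC4 in PP242 cytosol, where array 2 read 3.34 and the nearest array 3.09, at the low end of the scale. It was also found for SLC2A1 in PP242 cytosol, where array 2 read 8.21 and the nearest array 7.91. Both belong to 1 of the 2 arrays with the lowest weights in the series, and without that replicate number the cytosolic difference of SLC2A1 was 0.21 (limma adjusted p = 0.393).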

How the results depend on the processing

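Of 399 values of the 8 genes under the alternatives, 359 kept their direction and their side of the threshold, 3 lost a call, 7 gained one and 30 changed sign, none of the last being of a called result. The cause of these changes was not tested. The count of members called on polysomes was 2 with the replicate block and 1 to 2 on leaving out a number (1 without replicate 4), and in the cytosol it was 3 with the replicate block and 2 to 3 on leaving out a number. For polysome association it was 0 with the replicate block and 1 with the regression. The block changed no other member's call. On leaving out a number, the association ranged from -0.0767 to 0.0467 for ARRDC4, -0.21 to 0.0467 for SLC2A1, -0.29 to 0.0167 for SLC2A12 and -0.02 to 0.13 for SLC2A3, the polysome difference of SLC2A6 from -0.12 to 0.05 and the cytosolic difference of SLC2A8 from -0.0133 to 0.29. Sign changes on polysomes were SLC2A6 at 0.01 and SLC2A12 at -0.07 within numbers 1 and 2, SLC2A6 at 0.0202 after quantile normalization, SLC2A8 at 0.0387 with the mean of probe sets and at 0.16 with its second probe set, and SLC2A1 at -0.10 with its second. In the cytosol they were SLC2A8 at -0.005 within numbers 1 and 2, and ARRDC3 at 0.18 and SLC2A8 at -0.14 without PP242 cytosol arrays 2 and 4. For association they were SLC2A3 at -0.09 within numbers 1 and 2, at -0.0884 after quantile normalization and at -0.0074 with array weights; ARRDC4 at 0.04 within numbers 3 and 4, 0.0428 and 0.0461 after quantile and cyclic loess normalization, 0.05 without PP242 cytosol arrays 2 and 4 and 0.0182 by regression; SLC2A1 at 0.075 within numbers 3 and 4 and 0.28 by regression; SLC2A12 at 0.0666 by regression and 0.0775 with its second probe set; SLC2A8 at 0.0625 without those arrays; and TXNIP at 0.0475 with its dimmest probe set. Members with a polysome minus cytosolic signal above the median gene in both treatments numbered 4, and 3, 3 and 4 with quantile, cyclic loess and median scaling, settings chosen after seeing the data. Over all genes, polysome calls were 2644, against 4020 with the replicate block, 1690 and 1627 without replicates 1 and 2, and 1089 within numbers 3 and 4. Cytosolic calls were 3253, against 4929 with the replicate block, 1543 and 1604 without replicates 2 and 4, 1058 within numbers 3 and 4, 1976 without PP242 cytosol arrays 2 and 4 and 2069 with the 8 cytosolic arrays alone. Association calls were 0, against 695 by regression.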
